A study of Homo sapiens with 4 samples.

Results

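The 10 genes described here are CDK6 and 9 other regulators of the G1 phase of the cell cycle, out of 19671 protein-coding genes that could be placed with a strand. They were chosen by name for their roles and not by a cutoff on a measured value, but with earlier results of these data known. They are the kinase genes CDK6, CDK4 and CDK2, the cyclin genes CCND1, CCND2, CCND3 and CCNE1, the inhibitor genes CDKN1B and CDKN2C, and RB1. H3K27Ac, an acetylation of histone H3 found at active promoters and enhancers, was profiled by ChIPmentation in MOLM13, an established human AML cell line with MLL1-r. ChIPmentation is a ChIP in which Tn5 transposase inserts the sequencing adapters while the chromatin is still bound to the antibody. There was 1 control library, whose label gives no treatment while the shared protocol names DMSO, and 1 library from cells exposed to 500 nM of the Menin inhibitor SNDX-50469 for 16 h. The 2 input libraries were not analysed here. No difference between the conditions has a replicate check, and no test between them was made.

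In G1, the D-type cyclins bind CDK4 and CDK6, and the active kinases phosphorylate the RB1 protein, which otherwise holds E2F transcription factors in check. Cyclin E with CDK2 continues this phosphorylation toward S phase, while inhibitors of the INK4 family bind CDK4 and CDK6 and inhibitors of the CIP/KIP family bind cyclin-kinase complexes. In leukemia with MLL1 fusions, CDK6 is known as a gene bound by the fusion protein and as a kinase on which the cells depend.

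The control list held 245875 broad peaks over 224 Mb and the SNDX-50469 list 54061 over 29.4 Mb. The lists carry no read totals, so depth is unknown, and their weakest peaks stop at different −log10 p, 2.68 in control and 3.93 following treatment. Genome-wide, 9.71% of the positions covered in control were covered again after treatment, and this low level stands behind each gene below. The lists held the marks of the labelled cell type. All 8 myeloid blast markers (SPI1, CEBPA, CD33, MPO, LYZ, FLT3, CSF3R and MEIS1) were marked in control near the 5′ end, within 5 kb, over 5966 to 10001 bp with a median of 9706 bp, and 7 of 8 had a peak there after treatment. Of the markers of other tissues, CD3E and COL1A1 had control peaks there, over 1065 and 2347 bp, PAX5, HBB, ALB, EPCAM and NEUROD1 had none, and none of these 7 had a peak after treatment.

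Each gene was measured over its body and 5 kb on both sides. This stretch was split into the 5′ window, 5 kb on each side of the outermost annotated 5′ end, and the rest. Covered length is the number of bp under peaks of a list, and the kept share gives how much of the control covered length, in percent, also lies under peaks of the SNDX-50469 list. Coordinates are those of GRCh38, the build of hg38.

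Peaks covered 384175 bp of the 10 genes in control and 48744 bp following SNDX-50469 treatment, and 12.1% of the control length was kept. The covered length was shorter after treatment at all 10 genes. It fell to at most 50% of the control length at 9 of 10, the exception being CDKN1B, against 93.7% of the 15491 protein-coding genes with control coverage, so that this count is close to that of genes at large. Of 229 control peaks at the members, 27 shared at least 1 bp with a treated peak, a share of 11.8% (Wilson 95% interval 8.23 to 16.6, for counting error only, since neighbouring peaks are not independent).

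The 5′ windows kept more than the rest. Near the 5′ ends 62043 bp were covered in control and 22320 bp after treatment, with 34.8% kept, and over the rest 322132 and 26424 bp, with 7.75% kept. Pooled over all genes the same shares were 20.4% and 7.88%. The members' own shares had a median of 26.8% near the 5′ end and of 2.51% over the rest, where the medians of all genes with control coverage there were 1.84% and 0%. Some 5′ coverage was kept at 8 of 10 members, all but CDK2 and CCND1, against 50.8% of 13246 genes. Over the rest, 5 of the 8 members with control coverage there kept some, against 32.0% of 13512 genes. The members were also more covered in control than most genes. Their 5′ windows were covered to between 17.4% at CCND1 and 100% at CDK6, against a median of 14.8% over all 19671 genes. The part of this in the kept shares was not tested.

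**Figure D1:**
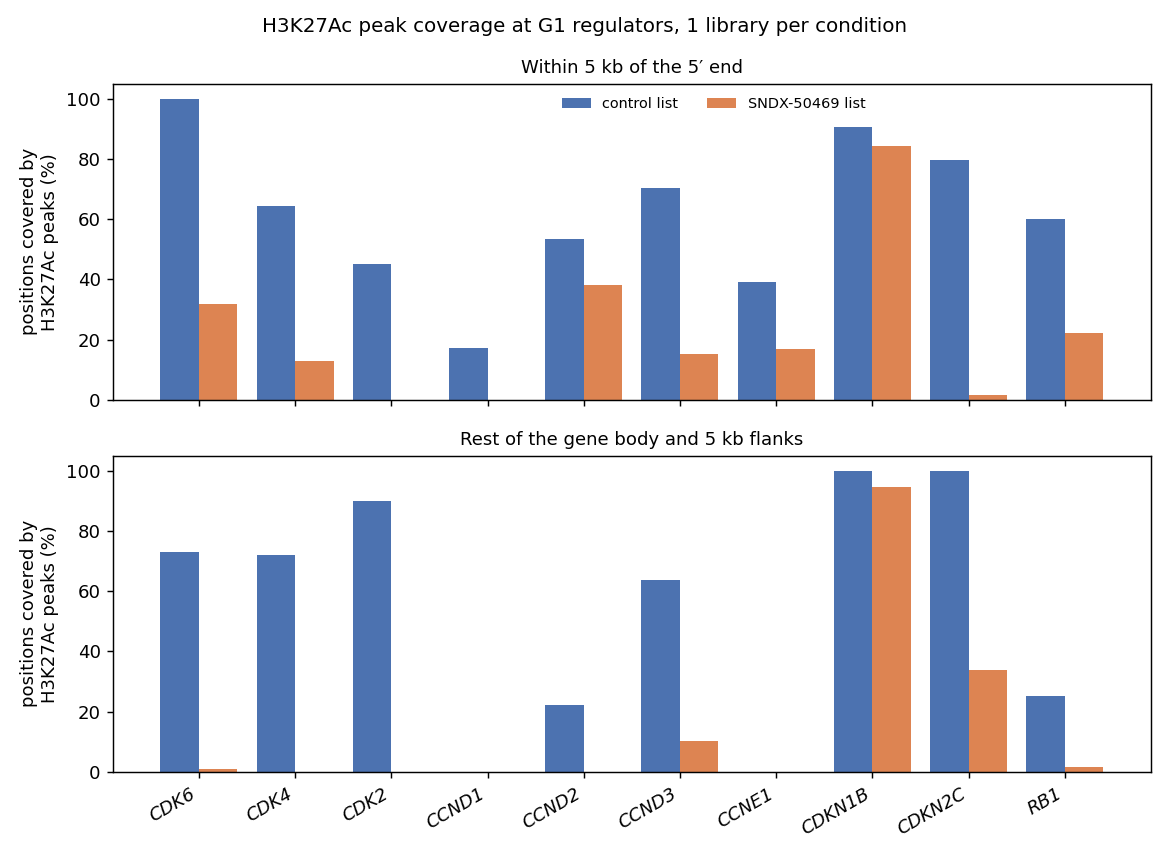
Percent of positions under H3K27Ac peaks (vertical axes) at each of the 10 genes, in the control list (blue bars) and the SNDX-50469 list (orange bars), within 5 kb of the 5′ end (top) and over the rest of the gene body with 5 kb flanks (bottom), with 1 library per bar and no error bars. CDKN1B is nearly as covered after treatment, at 84.2% and 94.5%, while the CDK6 bars drop from 100% to 31.9% near the 5′ end and from 73.1% to 0.912% over the rest.

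Ordered by the percent of gene and flanks covered in control, CDKN1B (93.7%) and CDKN2C (91.6%) came first. They were followed by CDK6 (74.2%), CDK4 (66.9%), CCND3 (64.1%) and CDK2 (61.9%), then by CCND2 (29.6%) and RB1 (27.1%), and last by CCNE1 (17.6%) and CCND1 (7.47%). The order after treatment was another, led by CDKN1B (87.6%) and CDKN2C (20.3%). CCND3 (10.6%), CCND2 (9.19%), CDK4 (8.89%) and CCNE1 (7.58%) came next, RB1 (2.86%) and CDK6 (2.20%) followed, and CDK2 and CCND1 had no peak. CDK6 thus moved from the third place to the eighth. This order depends on gene length, since long genes have less of their stretch in the 5′ window. In the 5′ window alone, of equal length at each gene, CDK6 was covered to 100% in control. After treatment it was covered to 31.9% there, below CDKN1B (84.2%) and CCND2 (38.2%) only. With 1 library each, the spread that would separate neighbours in these orders is not known.

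CDK6 encodes a kinase that D-type cyclins activate. The gene lies on the minus strand of chromosome 7 from 92604921 to 92836573, a length of 231653 bp. Its promoter was available from RefSeq (GRCh38.p14) and is shown because the longest stretch kept at this gene lies over it. The 250 bases before the 5′ end, chr7:92836574-92836823 on the minus strand, have their GC boxes (GGGCGG, or CCGCCC for the other strand) in capitals.
CDK6: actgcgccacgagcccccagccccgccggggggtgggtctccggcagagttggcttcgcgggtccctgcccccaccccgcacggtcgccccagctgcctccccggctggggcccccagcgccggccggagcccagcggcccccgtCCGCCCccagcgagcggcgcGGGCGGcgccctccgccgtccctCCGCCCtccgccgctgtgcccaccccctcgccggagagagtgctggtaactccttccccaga
These bases hold 3 GC boxes and have a GC content of 80.0%, where the median over 35116 RefSeq promoters of 300 bases was 58.7%. A GC box is found in 45.0% of those promoters. Every base of the CDK6 promoter was under a peak in both lists.

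In control, 69 peaks covered 179382 bp of CDK6 and its flanks. Of 19671 protein-coding genes, 28 had a longer control covered length. The control peak over the 5′ end ran over 19597 bp, from 92825935 to 92845531, with a fold over background of 7.31 and rank 1731 in its list. It filled the 5′ window entirely. Along the body, in bins of 20 kb, control coverage lay between 36.3% and 94.3%, and the bin starting 100 kb into the gene was the most covered. The next widest control peaks were an 11623-bp peak from 101717 bp downstream of the 5′ end, a 10972-bp peak from 195250 bp, a 9170-bp peak from 185724 bp and an 8666-bp peak 49979 to 58644 bp downstream.

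Following SNDX-50469 treatment, 9 peaks covered 5306 bp, and all 5306 bp were under control peaks. The kept share of CDK6 was 2.96%, and by number 4 of 69 peaks overlapped a treated one (5.80%, Wilson interval 2.28 to 14.0). The 5′ window held 5 of the 9 treated peaks, together 3194 bp or 31.9% of the control length there. The longest was 1525 bp, from 550 bp upstream to 974 bp downstream of the 5′ end, with a fold of 4.75 and rank 2485 in its list. The next, 642 and 769 bp long, began 1386 and 2507 bp downstream, the second of them near an annotated alternative 5′ end at 2614 bp. Within 1 kb of that alternative 5′ end, 2001 bp were covered in control and 1183 bp after treatment.

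Outside the 5′ window, 169381 bp of CDK6 were covered in control and 2112 bp after treatment, a kept share of 1.25%. The remaining 4 treated peaks were 134 to 1259 bp long. Those of 517 and 1259 bp lay 55259 and 56820 bp from the 5′ end, inside the 8666-bp control peak. Those of 202 and 134 bp lay 107651 and 196967 bp from it, inside the 11623-bp and 10972-bp control peaks. The 9170-bp control peak, and a 7296-bp control peak from 79395 bp with a fold of 5.65 and a −log10 q of 6.62, shared no position with a treated peak. Of the 12 bins along the body, the last one shorter, 4 held any treated coverage, 12.5% in the first 20 kb, 8.88% in the bin from 40 kb, and 1.01% and 0.670% in the bins from 100 and 180 kb.

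**Figure D2:**
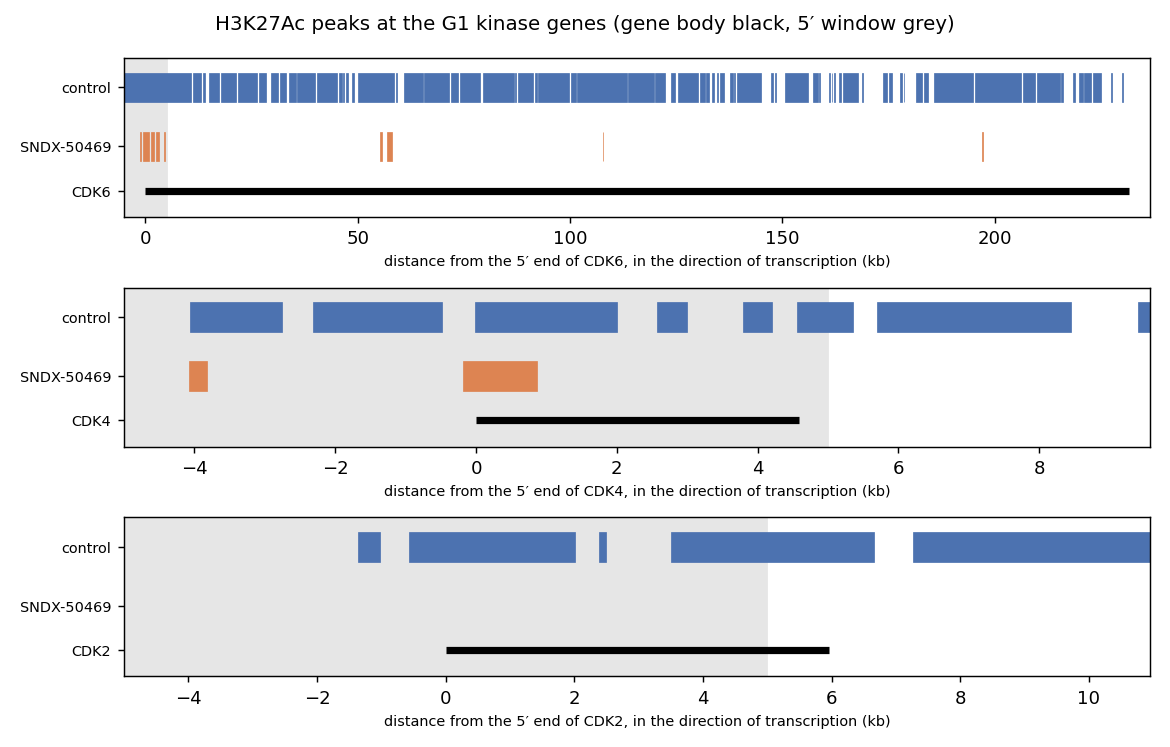
H3K27Ac peaks of the control list (blue) and the SNDX-50469 list (orange) along CDK6, CDK4 and CDK2, by distance from the 5′ end in kb in the direction of transcription, with the gene body in black, the 5′ window in grey and a separate scale for each gene. Control peaks fill most of CDK6, where 5 of the 9 treated peaks lie in the 5′ window and 4 beyond it, CDK4 keeps 2 treated peaks on its 5′ side, and CDK2 has none.

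CDK4, the other kinase activated by D-type cyclins, is a short gene of 4584 bp on the minus strand of chromosome 12, from 57747727 to 57752310. The 250 bases before its 5′ end, chr12:57752311-57752560 on the minus strand, are set against those of CDK6, again with GC boxes in capitals.
CDK4: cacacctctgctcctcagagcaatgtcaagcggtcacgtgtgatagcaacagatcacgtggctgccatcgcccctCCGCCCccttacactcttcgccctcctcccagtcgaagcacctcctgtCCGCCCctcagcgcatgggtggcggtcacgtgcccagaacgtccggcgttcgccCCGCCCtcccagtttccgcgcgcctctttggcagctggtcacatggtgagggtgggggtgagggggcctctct
This stretch also holds 3 GC boxes, at a GC content of 65.6%. Of the 300-base promoter, 58 bp were under control peaks and 229 bp under a treated peak.

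In control, 8 peaks covered 9756 bp of CDK4 and its flanks, and after treatment 2 peaks covered 1297 bp, 1120 bp of it under control peaks. The kept share was 11.5%. A 2019-bp control peak, with a fold of 6.10, ended 8 bp upstream of the 5′ end, and the 1048-bp treated peak there ran from 179 bp upstream to 868 bp downstream. The other treated peak, 249 bp, lay 3825 to 4073 bp upstream, beyond the 5′ end of MARCHF9, which is 2793 bp upstream. Of the 3306 bp covered in control over the rest, which includes a 2764-bp peak at the 5′ end of the overlapping gene TSPAN31, none was kept.

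The kept share of CDK6 over gene and flanks was thus below that of CDK4, 2.96% against 11.5%, a difference of −8.52 percentage points. In the 5′ windows, which have the same length for both genes, the order was the opposite, with 31.9% kept at CDK6 and 17.4% at CDK4. Within 25 kb of each 5′ end, CDK6 went from 34189 to 3194 bp with 9.34% kept, and CDK4 from 16891 bp to 2463 bp with 13.5% kept. Over the rest, 1.25% was kept at CDK6 and 0% at CDK4, so that CDK6 kept the larger share in both parts. The whole-gene share weighs the parts by their control covered length. The rest made up 169381 of 179382 bp at CDK6 and 3306 of 9756 bp at CDK4. The size of this contrast changed with the stretch measured, and its direction differed between either part alone and the whole gene. Neither gene had a treated peak with a −log10 q of at least 5, of which CDK6 had 3 and CDK4 had 1 in control.

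CDK2, the kinase partner of cyclin E, lies on the plus strand of chromosome 12 from 55966830 to 55972789. Its 5 control peaks covered 9873 bp, among them a 2577-bp peak over the 5′ end and a 5902-bp peak beginning 7267 bp downstream, with a fold of 5.28, near the 5′ end of RAB5B. No treated peak lay in the gene or its flanks, nor within 25 kb of the 5′ end, where 18642 bp were covered in control. The gene PMEL starts 121 bp away on the other strand, and the 1544 bp covered within 1 kb of its 5′ end in control were also lost. Of 8516 genes with at least 5 kb covered in control, 1868 kept nothing, CDK2 among them.

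The D-type cyclin genes started from unlike control coverage. CCND1, on the plus strand of chromosome 11 from 69641156 to 69654474, had 2 control peaks of 236 and 1507 bp, both just downstream of the 5′ end. The wider of them had rank 20180 in its list. After treatment CCND1 had no peak, also within 25 kb of its 5′ end. Since only 1743 bp were covered in control, the kept share of 0% rests on little length.

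CCND2 lies on the plus strand of chromosome 12 from 4273762 to 4305353, and its 9 control peaks covered 12301 bp. The peak over the 5′ end was 4838 bp long, with a fold of 5.22 and rank 7473. After treatment a single peak of 3821 bp remained, from 2767 bp upstream to 1053 bp downstream of the 5′ end, with a fold of 5.95, a −log10 q of 5.98 and rank 706 of 54061. It kept 67.5% of the control length in the 5′ window. Beyond the window, 6968 bp in 7 control peaks, among them a 4765-bp peak from 14752 bp, left no treated peak. The kept share of the whole gene was 29.3%.

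CCND3 lies on the minus strand of chromosome 6 from 41934933 to 42050035 and was the most widely covered of the D-type cyclin genes, with 80210 bp under 57 control peaks. After treatment 15 peaks covered 13243 bp, keeping 16.5% of the length, with 10 of 57 peaks overlapping a treated one (17.5%, Wilson interval 9.82 to 29.4). Of all genes, 216 had a longer control covered length. The 5′ window went from 7021 to 1514 bp (21.6% kept) and the rest from 73189 to 11729 bp (16.0% kept).

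Of the 13233 bp kept at CCND3, 6116 bp lay in the bin from 100 kb to the gene's end, which holds annotated alternative 5′ ends 108227 and 110830 bp downstream of the outermost one. There an 11530-bp control peak, with a fold of 11.7 and rank 95 of 245875, shared 5867 bp with treated peaks, 4937 bp of them with 1 treated peak. Within 1 kb of the alternative 5′ end at 110830 bp, 2001 bp were covered in both lists, and within 1 kb of that at 108227 bp the length went from 2001 to 1113 bp. In this bin 45.8% of the control length was kept, against 14.6%, 10.7% and 22.7% in the bins from 0, 20 and 40 kb, none in the bin from 60 kb and 2.85% in the bin from 80 kb. Another kept group lay in a 10669-bp control peak from 32193 bp, of which 3222 bp were shared. The alternative 5′ end nearest the outermost one, 1347 bp downstream of it, is shown with its GC boxes in capitals. It was chosen because, unlike the CDK6 and CDK4 promoters, it was under no treated peak. The bases shown are chr6:42048689-42048938 on the minus strand.
CCND3: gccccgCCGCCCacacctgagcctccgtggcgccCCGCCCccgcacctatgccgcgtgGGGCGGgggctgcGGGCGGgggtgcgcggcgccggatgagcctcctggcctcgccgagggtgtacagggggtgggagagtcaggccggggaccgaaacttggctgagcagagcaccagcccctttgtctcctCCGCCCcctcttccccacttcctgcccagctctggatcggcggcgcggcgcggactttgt
It holds 5 GC boxes at a GC content of 74.4%. All 300 bases of this promoter were covered in control and none after treatment, and within 1 kb the length went from 2001 to 332 bp. At the neighbouring 5′ end of TAF8, 489 bp from that of CCND3 on the other strand, 1182 of 2001 bp were covered after treatment.

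**Figure D3:**
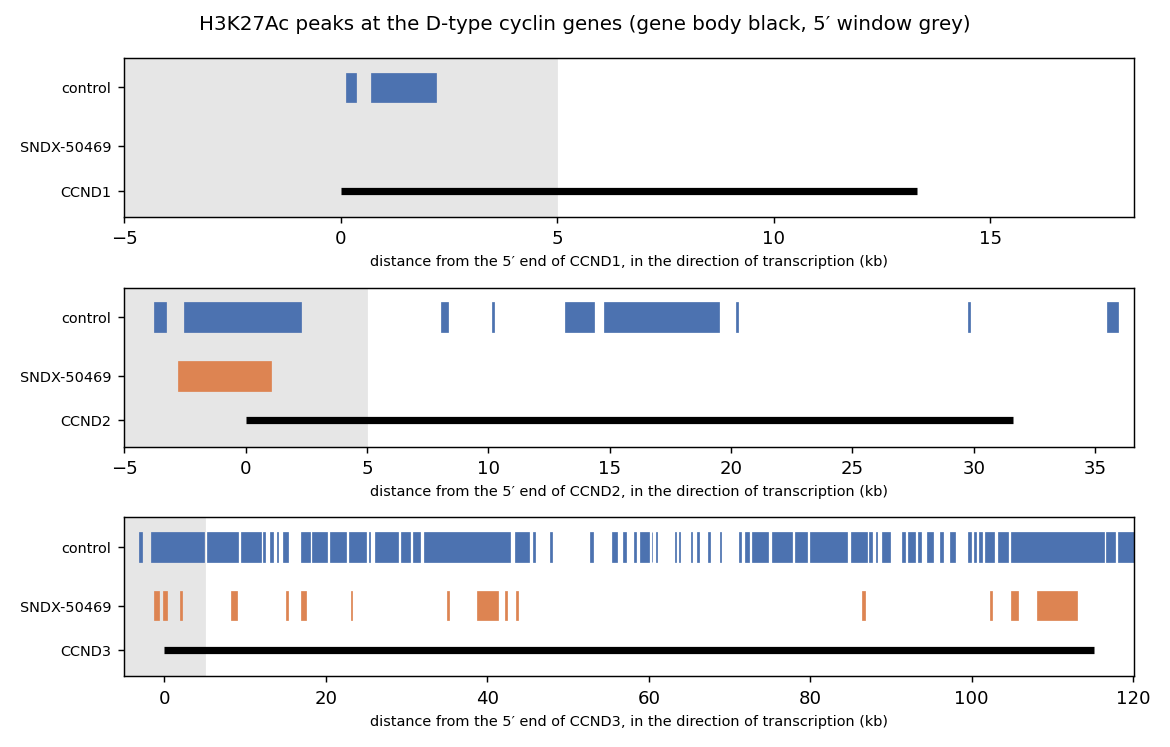
H3K27Ac peaks of the control list (blue) and the SNDX-50469 list (orange) along CCND1, CCND2 and CCND3, by distance from the 5′ end in kb in the direction of transcription, with the gene body in black, the 5′ window in grey and a separate scale for each gene. CCND1 has 2 control peaks and no treated peak, CCND2 keeps 1 treated peak over the 5′ end, and the 15 treated peaks of CCND3 include a 4937-bp peak at its 3′ part.

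Set against CCND1, CCND2 had 29.6% of gene and flanks covered in control against 7.47%, a difference of 22.1 percentage points, and CCND3 had 64.1%, a difference of 56.6. Within 25 kb of each 5′ end, a stretch of equal length, the control covered lengths were 1743 bp at CCND1, 11739 bp at CCND2 and 22581 bp at CCND3. After treatment these were 0, 3821 and 3914 bp. CCND2 and CCND3 therefore had nearly the same treated length around their 5′ ends, in 1 peak at CCND2 and in 9 peaks at CCND3. Of this length, 3600 bp at CCND2 and 3307 bp at CCND3 lay under control peaks. On chromosome 6, 49.2% of the treated peaks shared no position with control, against 23.3% on chromosome 12. Over CCND3 and its 5 kb flanks, a different stretch from the 25 kb windows, 10 of the 13243 bp covered after treatment lay outside control peaks.

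CCNE1, which encodes cyclin E1, lies on the plus strand of chromosome 19 from 29811991 to 29824312. All of its 7 control peaks, 3933 bp together, were in the 5′ window. The strongest, 1605 bp with a fold of 7.36 and rank 1671, lay upstream, from 1917 to 313 bp before the 5′ end. A treated peak of 1377 bp lay wholly within it. Another treated peak of 316 bp, 2165 to 2480 bp downstream, shared no position with control. The kept share was 35.0%, and the 300 bases of the CCNE1 promoter were under no peak in either list. Without the weak control peaks, at a −log10 q of at least 2 in both lists, the share was 85.8%.

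The inhibitor genes kept unlike shares. CDKN1B, which encodes the CIP/KIP inhibitor p27, lies on the plus strand of chromosome 12 from 12717368 to 12722369. A single control peak of 16444 bp, from 12713466 to 12729909, with a fold of 8.89 and rank 539, spanned the gene, and a treated peak of 13149 bp, from 12713948 to 12727096, lay wholly inside it. The treated peak had a fold of 7.32, a −log10 q of 8.68 and rank 199 of 54061. The covered length of gene and flanks went from 14055 to 13149 bp, with 93.6% kept, 93.0% in the 5′ window and 94.5% over the rest.

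CDKN1B kept more than 8502 of the 8516 genes with at least 5 kb covered in control, whose median was 7.85%, and 13 genes kept more. The peak is shared with neighbours, since GPR19 starts 122 bp away on the other strand and APOLD1 starts 8549 bp downstream. Within 1 kb of each of these 5′ ends, 2001 bp were covered in both lists. Acetylation of CDKN1B and of these neighbours cannot be told apart here. The 121 bases between the 5′ ends of GPR19 and CDKN1B, chr12:12717247-12717367 on the strand of CDKN1B, lie under the peak in both lists. They are shown with 1 GC box and 1 CCAAT box (CCAAT or, for the other strand, ATTGG) in capitals.
CDKN1B: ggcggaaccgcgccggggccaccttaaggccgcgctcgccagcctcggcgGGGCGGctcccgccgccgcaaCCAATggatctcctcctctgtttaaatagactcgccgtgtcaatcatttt
Of the RefSeq promoters, 34.6% hold a CCAAT box.

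CDKN2C, which encodes the INK4 inhibitor p18, lies on the plus strand of chromosome 1 from 50960745 to 50974634. A control peak of 25326 bp, with a fold of 7.15 and rank 1938, covered the whole gene. After treatment 4 peaks covered 4853 bp, all within it, and 22.2% was kept. The outermost 5′ end, which lies 478 bp from that of FAF1 on the other strand, kept 150 of 7983 bp in its 5′ window, or 1.88%. The rest kept 33.9%, 4703 of 13889 bp. The longest treated peak, 2655 bp, began 6679 bp downstream and ended at 9333 bp, over an annotated alternative 5′ end at 7961 bp. A further peak of 1581 bp, with a fold of 4.84, lay beyond the 3′ end.

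The 250 bases before both 5′ ends of CDKN2C are shown because the same control peak covered both and a treated peak covered only the second of them, chr1:50960495-50960744 for the outermost and chr1:50968456-50968705 for the internal one, both on the plus strand, with GC boxes in capitals.
CDKN2C outermost: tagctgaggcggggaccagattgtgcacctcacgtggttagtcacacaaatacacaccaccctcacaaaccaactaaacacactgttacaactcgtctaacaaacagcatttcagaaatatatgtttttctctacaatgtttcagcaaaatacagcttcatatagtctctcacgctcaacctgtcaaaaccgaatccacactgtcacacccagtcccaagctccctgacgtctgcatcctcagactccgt
CDKN2C internal: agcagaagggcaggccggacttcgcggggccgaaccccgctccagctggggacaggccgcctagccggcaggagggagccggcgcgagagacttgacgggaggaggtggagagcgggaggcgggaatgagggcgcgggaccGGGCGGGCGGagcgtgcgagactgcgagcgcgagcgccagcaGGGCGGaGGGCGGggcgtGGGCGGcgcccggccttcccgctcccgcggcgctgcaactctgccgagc
The outermost stretch has a GC content of 45.6% and no GC box, and the internal one has 77.2% and 5 GC boxes, of which the first pair overlap. Within 1 kb of the outermost 5′ end, the covered length went from 2001 to 109 bp, and at the internal one it was 2001 bp in both lists. At the third annotated 5′ end, 9500 bp downstream, it went from 2001 to 834 bp.

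RB1, which encodes the pocket protein that the G1 kinases phosphorylate, lies on the plus strand of chromosome 13 from 48303751 to 48481890. Its 66 control peaks covered 51050 bp and 11 treated peaks covered 5382 bp, with 7.69% kept. The 5′ end kept the largest piece. A 5437-bp control peak with a fold of 7.17 and rank 1912 held a treated peak of 2230 bp, from 910 bp upstream to 1319 bp downstream, with a fold of 5.35 and rank 1173. In the 5′ window 37.1% was kept.

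Over the rest of RB1, 45044 bp were covered in control and 3152 bp after treatment, of which 1696 bp were under control peaks, a kept share of 3.77%. The widest control peaks there were a 7705-bp peak from 94384 bp, which kept nothing, and a 6791-bp peak from 140168 bp, which shared 544 bp. The second lies at the 5′ end of LPAR6, a gene inside RB1 on the other strand, where 1751 bp within 1 kb were covered in control and none after treatment. Of the 11 treated peaks, 4 shared no position with control, a pattern not seen at CDK6, where all 9 did share one. On chromosome 13, 52.7% of treated peaks lay outside control peaks, against 28.6% on chromosome 7, and the part of this in the RB1 values was not tested.

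**Figure D4:**
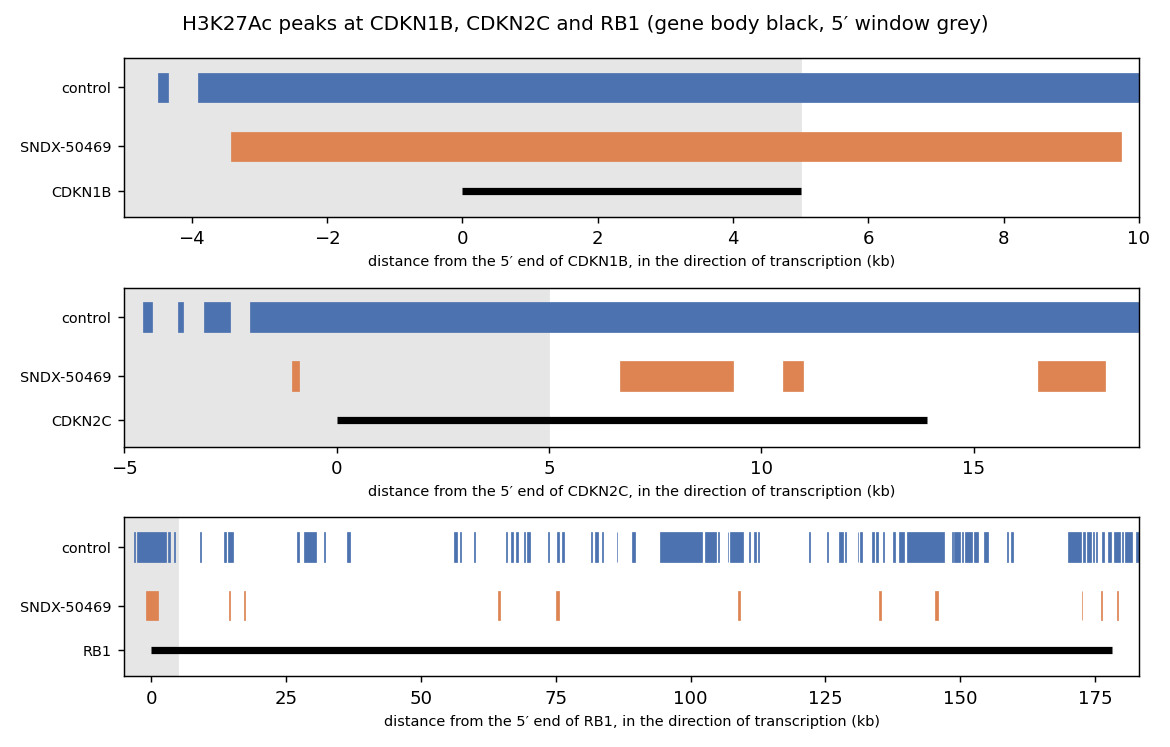
H3K27Ac peaks of the control list (blue) and the SNDX-50469 list (orange) along CDKN1B, CDKN2C and RB1, by distance from the 5′ end in kb in the direction of transcription, with the gene body in black, the 5′ window in grey and a separate scale for each gene. The treated peak of 13149 bp spans CDKN1B, the longest treated peak of CDKN2C lies 6679 bp inside the gene, and RB1 keeps 2230 bp over its 5′ end with 10 short treated peaks beyond.

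Among the peaks at the 10 genes that reached a −log10 q of at least 5 after treatment there were 2, that of CCND2 and that of CDKN1B. In control 13 peaks at 9 of the genes did so, all but CCND1. In the whole lists 9275 control peaks and 938 treated peaks did so, and 6.47% of the control covered length was kept at this threshold. Since q, like p, is relative to each library's own background, these counts do not compare signal heights. At this threshold CDK6, CDK4, CDK2, CCND3, CCNE1, CDKN2C and RB1 kept no covered length.

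Promoters were found in the RefSeq table for 7 of the 10 genes, as 12 promoters of 300 bases. CDK2, CCND1 and CCND2 had no entry, and the entries of CCND3 and RB1 do not include the outermost 5′ end. Searched on both strands, the E2F sites TTTCGCGC, TTTGGCGC, TTTCCCGC and TTTGCCGC, the CRE TGACGTCA and the TATA box TATAAA had no match in the 12, and they occur in 3.31%, 1.85% and 11.5% of all promoters. The ETS motif CCGGAAG, found in 10.3% of promoters, had 1 match, in the CCND3 promoter at 108227 bp. A match or its absence describes these letters only.

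The long gene CDK6 was set against the 3343 protein-coding genes of at least 100 kb by 4 percentages, the control and the treated coverage of the 5′ window and of the rest. The 5 genes with the smallest distance to it in these percentages were GAB2 (8.93), IKZF1 (10.4), KLF13 (14.2), JARID2 (14.6) and PRDM10 (15.7), over 1 library per condition. GAB2 encodes a signalling adaptor and IKZF1 a transcription factor of blood cell development. In these 5 genes the treated coverage of the rest lay between 4.61% and 8.06%, all above the 0.912% of CDK6. Whether genes at large kept more than CDK6 depended on the genes compared. Of the 8516 genes with at least 5 kb covered in control, 5693 kept more than CDK6 and 2822 kept less, with a median of 7.85%. The 2149 genes of like length with control coverage had a median kept share of 1.29%, against 2.96% at CDK6. Their median control coverage was 5.84%, against 74.2%. Over the rest, the median kept share of all genes with control coverage there was 0%, against 1.25% at CDK6. Pooled over these genes, the share was 7.88%.

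The other genes of the G1 pathway were 30 genes listed by role. Of the 28 with control coverage, 24 fell to at most 50% of the control length, against 93.7% of all protein-coding genes with control coverage. Near the 5′ end 21 of 28 kept some length, 30.5% pooled with a median of 23.1%, and over the rest 11 of 25 did, 3.94% pooled with a median of 0%. The pooled shares stand beside 34.8% and 7.75% at the 10 members. Of all genes with control coverage in the part, 50.8% kept some length near the 5′ end and 32.0% over the rest. CCNE2 and E2F5 lie on chromosome 8, where the treated covered length was 39.6% of that in control, against 7.51% to 16.0% on the chromosomes of the members.

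By role, all 10 E2F and DP factors fell to at most 50%, close to the 93.7% of all genes. They kept 29.8% of their 5′ and 2.83% of their remaining control length. E2F3, an activating E2F, went from 47593 to 5053 bp with 66.4% kept near its 5′ end, and TFDP1, the DP partner of E2F proteins, went from 26015 to 2223 bp with 7.32% kept in all. The kinase complex that activates CDKs, with CDK7, CCNH and MNAT1, kept 5.32% near the 5′ ends and 1.40% over the rest, pooled. The median of these 3 genes was 0% in both parts. CCNH, its cyclin, went from 50200 to 347 bp, and CDK7 from 10997 bp to no peak. The genes active in S-phase entry (CDC6, CDT1 and MCM2) kept 54.0% and 22.5% pooled, with medians of 28.4% and 0%. Over the rest, CDT1 alone kept length, 2482 bp, and CDC6 and MCM2 kept none.

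The highest kept shares among the 26 of these genes with at least 2 kb covered in control were those of CDT1, a replication licensing factor (14538 to 9442 bp, 64.9% kept), of CDKN2D, which encodes the INK4 inhibitor p19 (6920 to 4772 bp, 64.2%), and of CCNA2, which encodes cyclin A2 (2274 to 1288 bp, 41.8%). Nothing was kept at 5 of the 26, among them CCNA1 (16199 bp in control), CDK7 and FBXW7, a ubiquitin ligase subunit that targets cyclin E (11838 bp). The INK4 genes CDKN2A and CDKN2B had no peak in either list. CDKN1B, at 93.6%, stood above each of the 28 genes with control coverage.

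**Figure D5:**
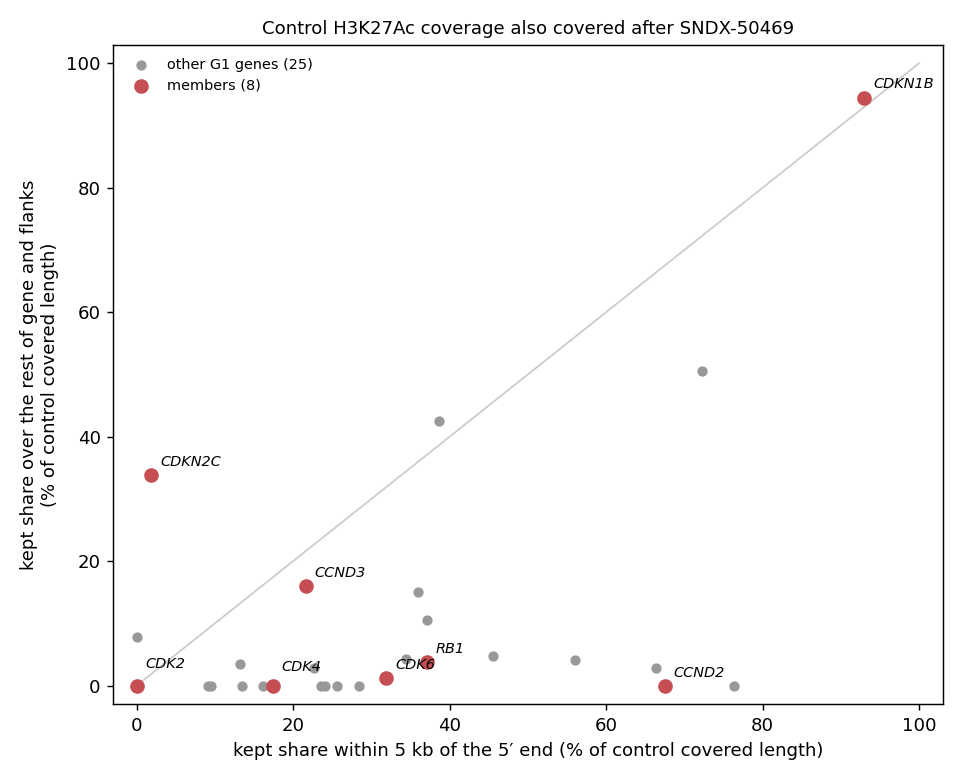
Kept share within 5 kb of the 5′ end (horizontal axis, percent of control covered length) against the kept share over the rest of the gene (vertical axis, percent), for the 8 members with control coverage in both (red) and 25 other G1 genes (grey), with a line where both are equal. Below the line lie 5 of the 8 members and 18 of the 25 other genes, and CDKN1B stands alone at the upper right while CDKN2C lies above the line at 1.88% and 33.9%.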

How the data were processed

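H3K27Ac libraries of MOLM13 cells, 1 control and 1 treated, were analysed from the broad peak lists that the authors deposited, called separately for each library. The submitters' processing notes name Trim Galore 0.6.5, Bowtie2 2.3.4.2, Picard 2.9.0, MACS2 2.1.2 and GRCh38, whereas the study's supplementary methods name TopHat2 and hg38. The calling options and any use of the inputs are not given in the sources used here. In the deposited lists each peak carries a ratio (fold over the background of its own library), a −log10 p, a −log10 q and a score of 10 times the −log10 q. The score was not used, and since fold and p are relative to each library's own background, positions and not heights were compared between lists.

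Genes were the protein-coding genes of RefSeq GRCh38.p14, of which 19671 of 20033 had a strand, 15842 from the RefSeq promoter table and the others by symbol from an older-build annotation that gave no coordinate. In 63 genes the sources differed and the promoter table was used. Lengths were computed in Python 3.11.15 with numpy 2.4.6 and pandas 2.3.3 and figures drawn with matplotlib 3.10.9. The interval code was tested on simulated data. A peak was kept when it shared 1 bp. Read depth is not in the lists, so the precision of covered lengths is unknown.

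The members and gene lists were chosen with earlier results of these data known. All 10 members are named. Of the markers of other tissues, 1 is not reported here. Of 30 other G1 genes, the text names the 3 with the longest control covered length, the 3 with the highest and the 3 with the lowest kept share among those with at least 2 kb covered in control, each gene with no control peak, and those needed to describe a role. The 5 genes of at least 100 kb most like CDK6 were taken by Euclidean distance in 4 percentages, and genes whose 5′ end lies in a member's stretch are named as neighbours. The promoters of CDKN1B and CDKN2C were added for display after values were seen. Alternatives were other −log10 q thresholds, a trimmed control list, other windows and flanks, single genes left out, medians and a stricter overlap.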

Additional observations from a re-analysis of the deposited data

How the results depend on the processing

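No paired analysis was possible because there is 1 library for each condition, and for the same reason no replicate could be left out. An alternative was taken as unchanged when its value lay within the 95% Wilson interval of the reported share or, for a difference, the matching interval. The interval took the number of control peaks as its sample size, or the kb measured for the D-type cyclin differences. Neither peaks nor kb are independent, so these intervals are a yardstick and measure no spread. A kept share cannot change sign, so a reversal was possible for the differences between genes only. None of these differences changed sign in the alternatives. The CDK6 and CDK4 alternatives did not include either part alone. There the difference was positive, 14.6 points in the 5′ window and 1.25 over the rest. The pooled kept share near the 5′ ends, 34.8%, was 57.1% within 1 kb and lay between 24.9% and 46.6% otherwise, the lowest without CDKN1B. The pooled share over the rest, 7.75%, was 34.2% with the control list trimmed from its weakest peaks to the covered length of the SNDX-50469 list, 15.0% without CDK6 and 2.51% as a median of genes. The 5′ share stayed above that of the rest in each setting, by 46.6% against 34.2% in the trimmed list. The CCND2 and CCND1 difference in control coverage, 22.1 points, became 0 in the trimmed list, where neither has a control peak. The CCND3 and CCND1 difference, 56.6 points, became 17.7 at a −log10 q of at least 5 and 9.22 in the trimmed list. The CDK6 and CDK4 difference, −8.52 points, lay between −27.6 without flanks and 0 at a −log10 q of at least 5, where neither kept a peak, and could not be formed in the trimmed list, where CDK4 has no control peak. Control peaks kept fell from 11.8% to 2.62%, 6 of 229, when at least 50% of a control peak had to be covered. For single genes the intervals rest on few peaks and say little about stability. The CDKN1B share over the rest, 94.5%, was 34.3% with flanks of 20 kb, and the CDKN2C share near the 5′ end, 1.88%, was 20.5% within 10 kb. Leaving out CDKN1B and taking every annotated 5′ end were chosen after seeing the data. The limits of depth cannot be set from these lists, and a weak signal that fell below the caller's threshold is counted as lost.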

Other observations

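CDKN2A and CDKN2B, which encode the INK4 inhibitors p16 and p15, lay on chromosome 9 in a control stretch without peaks of 96.8 kb, from 21929012 to 22025805, which holds no other protein-coding gene. After treatment the stretch without peaks around them was 5673 kb long and held 29 genes. From peak lists alone, DNA without acetylation and DNA missing from the cells cannot be told apart.

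Around CDKN1B the kept coverage was local. Within 25 kb of its 5′ end 24416 bp were covered in control and 57.8% was kept, and within 100 kb 34838 bp were covered and 40.5% was kept. CCND2 kept 30.7% within 25 kb and 21.3% within 100 kb, with the same single treated peak of 3821 bp in both. Around CDK2, where nothing was kept within 25 kb, 2771 bp in 2 treated peaks were kept within 50 kb. CDK6 had 104090 bp covered within 100 kb of its 5′ end in control and kept 4.77% of it.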
